A study of Mus musculus with 20 samples.

Results

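The glutathione S-transferases of the alpha, mu, pi and theta classes were followed in the livers of obese mice given a statin, an isoprenoid alcohol, or both. The members were chosen by gene symbol: Gsta1, Gsta2, Gsta3, Gsta4, Gstm1, Gstm2, Gstm3, Gstp1, Gstt1 and Gstt2, which are 10 of the 34933 named genes in the deposited tables. All 10 passed the filter on low counts, as did 12789 genes in all. Liver RNA was sequenced from 20 mice in 4 groups of 5, each mouse giving 1 library. All mice, controls included, carried the WT genotype and had diet-induced obesity, so no lean or untreated animal stands beside them. The groups received vehicle, rosuvastatin, GGOH (geranylgeraniol), or rosuvastatin together with GGOH, called the combination here. Rosuvastatin inhibits HMG-CoA reductase, the enzyme that commits carbon to cholesterol and isoprenoid synthesis, and GGOH is an alcohol from which cells can make geranylgeranyl pyrophosphate downstream of that block. The labels used here give no dose, duration, sex, age or diet composition. They number the mice from 1 to 5 in each group, and p-values measure the spread between these samples.

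Glutathione S-transferases join the tripeptide glutathione to electrophilic drugs, carcinogens and products of lipid peroxidation, which makes these compounds more soluble and marks them for export. The conjugates leave hepatocytes through ABCC transporters and are trimmed to mercapturates. Hepatocytes hold large amounts of these enzymes, and several of the genes are known targets of the stress sensor NRF2 and of the xenobiotic receptors CAR, PXR and AHR.

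Several members are near copies of their neighbours, and this limits what short reads can assign to each. The first 100 coding bases of Gsta1 and 3 relatives are shown for that reason (GENCODE mouse release 21 on GRCm38), with every base that differs from Gsta1 in capitals.
Gsta1: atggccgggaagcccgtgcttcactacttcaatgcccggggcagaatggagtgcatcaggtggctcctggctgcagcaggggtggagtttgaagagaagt
Gsta2: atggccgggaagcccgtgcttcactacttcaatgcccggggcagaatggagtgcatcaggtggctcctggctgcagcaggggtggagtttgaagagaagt
Gm3776: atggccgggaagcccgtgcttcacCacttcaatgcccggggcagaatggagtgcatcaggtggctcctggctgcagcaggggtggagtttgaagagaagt
Gsta4: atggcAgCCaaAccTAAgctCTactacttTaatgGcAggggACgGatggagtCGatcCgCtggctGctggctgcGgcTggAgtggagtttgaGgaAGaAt
Gsta1 and Gsta2 were identical over these 100 bases, Gm3776 differed from Gsta1 at 1 base, and Gsta4 differed at 27. Over the whole coding sequence, 670 of 672 bases of Gsta1 and Gm3776 were identical (99.7%), and Gsta1 and Gsta2 shared 97.5% of aligned bases. Of the 924 distinct 31-base words in the Gsta1 transcripts, 92.9% also occurred in transcripts of another gene: 80.3% in Gm3776 and 56.6% in Gsta2. The shared part was 60.7% for Gsta2, 38.5% for Gstp1 (with Gstp2), 37.7% for Gstm3, 28.8% for Gstm1 and 12.2% for Gstm2. It was 3.66% or less for Gstt2, Gsta3 and Gstt1, and 0% for Gsta4. Words were compared on the transcript strand only. A further gene of the cluster, Gm10639, held 47.5% of the Gsta1 words and 43.6% of the Gsta2 words. It had no row under that name in the deposited tables, so its reads could not be followed. How the reads were divided among Gsta1, Gsta2, Gm3776 and Gm10639 is therefore uncertain.

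The 20 libraries held between 8548120 and 18373913 estimated counts. The share of counts on mitochondrial genes was 27.9% in combination mouse 2 and 29.2% in combination mouse 3, and no more than 17.1% elsewhere. The liver label was checked against 10 hepatocyte markers, of which 9 were in the tables and passed the filter; Alb, which encodes serum albumin, lay between 31265 and 67611 CPM (counts divided by library size and scaled, TMM-normalised). Summed markers of bile duct cells, a small cell population of liver, lay between 2.72 and 10.2 CPM. In whole liver, fewer cells of a type and less RNA per cell cannot be told apart. The Y-linked gene Ddx3y was present in all 20 libraries, at 35.4 to 87.1 CPM. Of 7 sterol pathway genes that respond to statins, all 7 lay higher with rosuvastatin than with vehicle (median log2 difference 1.24), 5 of them at an unadjusted p under 0.05 and 0 past the edgeR adjusted threshold of 0.05.

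The members differed widely in level. On the TPM scale (a share of all transcripts that allows for transcript length), the mean over 20 mice was 1659.6 ± 343 (SD) for Gsta3, the alpha enzyme of mouse liver known for conjugating the epoxide of aflatoxin. Gstm1, the main mu enzyme of mouse liver, followed at 551 ± 310.3 TPM. Gstp1 of the pi class stood at 357 ± 118 TPM and Gstt1 of the theta class at 311 ± 56.6 TPM. Lower levels were found for Gstt2 (134 ± 27.6 TPM), Gstm2 (60.5 ± 24.3 TPM) and Gsta4 (50.5 ± 19.3 TPM), an enzyme specialised for the lipid aldehyde 4-hydroxynonenal. Gsta2 (18.6 ± 13.2 TPM), Gsta1 (16.6 ± 19.1 TPM) and Gstm3 (16.5 ± 18.0 TPM) were the lowest. Gsta3 exceeded Gstm1 in all 20 mice, Gstt1 exceeded Gstt2 in all 20, and Gsta4 exceeded Gsta2 in all 20. The other neighbours did not hold their order in every mouse. Gstt2 exceeded Gstm2 in 19 of 20 mice, Gstm1 exceeded Gstp1 in 16 and Gsta2 exceeded Gsta1 in 15. The order was least steady for Gstp1 and Gstt1 (Gstp1 higher in 11 of 20 mice), Gstm2 and Gsta4 (12 of 20), and Gsta1 and Gstm3 (10 of 20). The alpha class made up 55.4 ± 9.07% of the summed TPM of the members, the mu class 19.0 ± 8.49%, the theta class 14.2 ± 2.12% and the pi class 11.4 ± 3.94%.

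**Figure D1:**
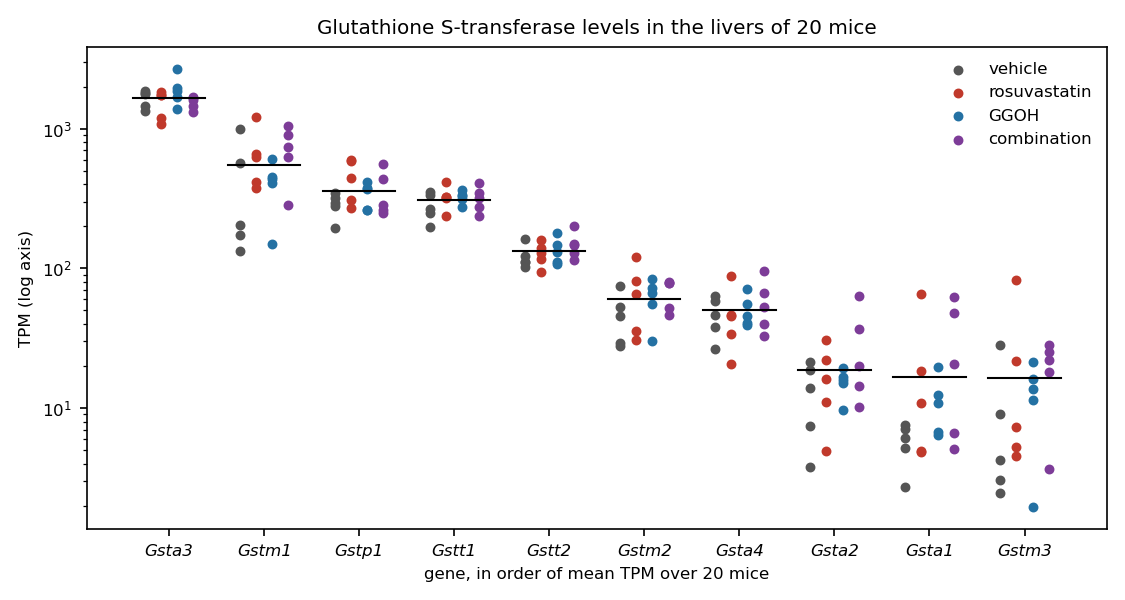
TPM of each gene (log axis) in 20 mice, with 1 point per mouse coloured by group and a black line at the mean over all mice. Gsta3 lies between 1084 and 2687 TPM, while Gsta2, Gsta1 and Gstm3 at the right spread over more than 10-fold between mice.

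The members differed in how much they varied between mice. Across the 20 mice, normalised counts spanned 29.9-fold for Gstm3, 23.0-fold for Gsta1 and 15.1-fold for Gsta2, but 1.65-fold for Gstt1. The SD of log2 CPM within groups was 1.22 for Gstm3 and 1.18 for Gsta1, larger than in 98.7% and 98.5% of all tested genes. For Gsta2 it was 0.90 (96.1% of genes were lower) and for Gstm1 0.65 (85.1%). Gstt1 was at the other end, with an SD of 0.24 that exceeded only 14.4% of genes.

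None of the 10 members passed the threshold in any of the 6 comparisons (edgeR quasi-likelihood test, adjusted p under 0.05), and neither did any other gene, so the background was 0% in each. With rosuvastatin against vehicle, 1 member (Gsta1) had an unadjusted p under 0.05 against 3.69% of all genes, 0 passed in DESeq2 against 0.0156%, and 0 had groups that did not overlap in CPM against 0.516%. With GGOH against vehicle, 0 members had such an unadjusted p (2.86% of genes), 0 passed in DESeq2 (0% of genes) and 0 were without overlap (0.43% of genes). For the combination against vehicle, the unadjusted count was 2 members, Gsta1 and Gstm1 (5.5% of genes), with 0 in DESeq2 (0.0391%) and 0 without overlap (0.758%). For the combination against rosuvastatin, the counts were 0 members unadjusted (1.69% of genes), 0 in DESeq2 (0.00782%) and 0 without overlap (0.266%). For the combination against GGOH, 1 member, Gstm1, had an unadjusted p under 0.05, where 14% of all genes did, with 0 in DESeq2 (0%) and 0 without overlap (2.26%). For the interaction, meaning the rosuvastatin difference with GGOH minus that without it, the counts were 0 members unadjusted (2.89% of genes) and 0 in DESeq2 (0%). When vehicle mouse 1 and the 2 combination mice with high mitochondrial shares were left out, the unadjusted count for rosuvastatin against vehicle was 4 members (Gsta1, Gsta3, Gstm1 and Gstm3), where 14.6% of all genes were under 0.05, and for the combination against GGOH it was 0 members with 3.29% of genes. Leaving out vehicle mouse 1 alone gave the same 4 members for rosuvastatin against vehicle, with 13.6% of genes, and 3 members for the combination against vehicle (Gsta1, Gstm1 and Gstm3), with 17.1% of genes. For rosuvastatin against vehicle, which member was under 0.05 also moved with the processing: limma gave Gstp1 alone on both TPM scales (2.78% and 3.05% of genes), sample quality weights gave Gsta3 and Gstm1 (23.9%), and edgeR with Gsta1 and Gsta2 summed gave 0 members (3.68%).

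The members' median log2 difference was 0.27 for rosuvastatin against vehicle, with 7 of 10 higher, where the median of all genes was -0.02. It was 0.31 for the combination against vehicle (9 of 10 higher, all genes 0.01) and 0.15 for GGOH against vehicle (10 of 10 higher, all genes -0.02). These 3 comparisons share the vehicle mice. Of all genes, 47.3% lay higher with rosuvastatin, 50.8% with the combination and 46.9% with GGOH. With GGOH, Gsta3, Gstt2 and Gsta4 had only 0.06 ± 0.26, 0.06 ± 0.28 and 0.08 ± 0.30. Some members varied together between mice, so the counts of members are not independent. For the combination against rosuvastatin the median was 0.15 (8 of 10 higher, 52.6% of all genes). Against GGOH it was 0.07 (6 of 10 higher, 50.9% of all genes), with the median of all genes at 0.01 in both.

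**Figure D2:**
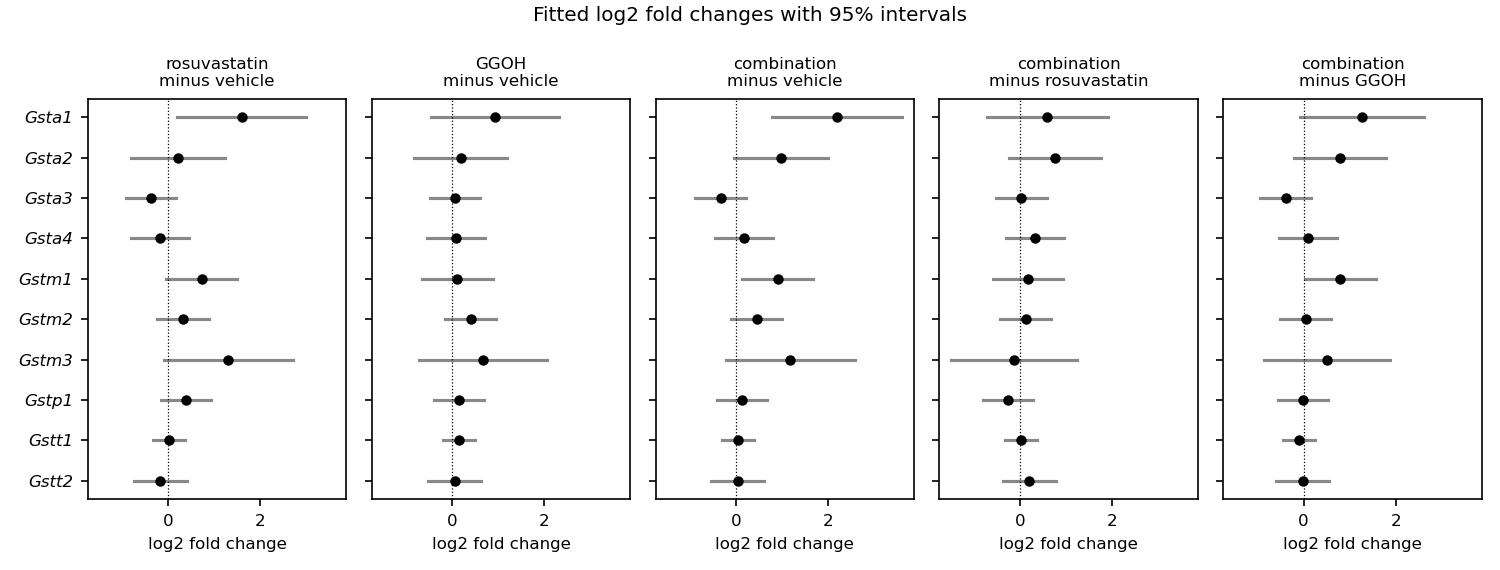
Fitted log2 fold change (point) and 95% interval (line) of each gene in the 5 pairwise comparisons, from edgeR over all genes. Gsta1 in the combination against vehicle has the largest value, 2.20, and the intervals of Gstt1 are the narrowest.

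Gsta1 encodes an alpha-class enzyme that is low in untreated mouse liver and is known as strongly inducible by antioxidants and phenobarbital-like drugs. Its estimates against vehicle were the largest among the members for rosuvastatin, GGOH and the combination. In vehicle mice 1 to 5 its normalised count was 3.77, 4.20, 1.69, 5.55 and 7.35 CPM. In the rosuvastatin mice it was 3.72, 15.6, 2.72, 7.84 and 37.5 CPM. In the GGOH mice it was 5.47, 13.8, 8.53, 9.53 and 4.99 CPM, and in the combination mice 4.48, 38.1, 4.51, 15.6 and 38.9 CPM. Rosuvastatin mouse 5 and combination mice 2 and 5 stood far above the rest, whereas combination mice 1 and 3 and rosuvastatin mice 1 and 3 lay within the vehicle range. The log2 difference between the combination and vehicle was 2.20 ± 0.68 (SE; a 4.59-fold ratio, 95% interval 0.79 to 3.60 on the log2 scale), with an unadjusted p of 0.00384 and an edgeR adjusted p of 0.817. For rosuvastatin against vehicle it was 1.60 ± 0.67 (edgeR adjusted p 0.973), and 0.77 when rosuvastatin mouse 5 was left out. The summed counts of Gsta1 and Gsta2 gave 0.79 ± 0.53 in that comparison (unadjusted p 0.152). GGOH against vehicle gave 0.93 ± 0.67, the combination against GGOH 1.27 ± 0.64 and the combination against rosuvastatin 0.60 ± 0.63, none past the threshold. The last of these ran from 0.21 without combination mouse 5 to 1.45 without rosuvastatin mouse 5. The interaction was -0.33 ± 0.91 and became 0.50 without rosuvastatin mouse 5.

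Gm3776, the copy of Gsta1 that differs at 2 coding bases, followed the same mice. Its normalised counts were 1.60 to 5.25 CPM in vehicle mice and 29.9, 33.1 and 32.3 CPM in rosuvastatin mouse 5 and combination mice 2 and 5. The combination against vehicle gave a log2 difference of 2.64 ± 0.72 (edgeR adjusted p 0.817). When the counts of Gsta1, Gsta2 and Gm3776 were summed, the difference was 1.72 ± 0.56 (edgeR adjusted p 0.818), so the sum did not pass the threshold either. This sum was chosen after the shared words had been seen, and it does not include Gm10639.

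Gsta2, an alpha gene of the same cluster with the same first 100 coding bases as Gsta1, had smaller estimates against vehicle. Its counts were 6.44, 3.74, 13.0, 7.33 and 20.1 CPM in vehicle mice and 8.42, 17.8, 2.55, 12.1 and 17.7 CPM in rosuvastatin mice. GGOH mice had 16.0, 10.2, 12.6, 11.7 and 7.13 CPM, and combination mice 8.44, 28.1, 9.23, 14.6 and 38.6 CPM. Combination mice 2 and 5 were again the highest, and the other groups overlapped over most of their range. The log2 difference of the combination from vehicle was 0.98 ± 0.49 (unadjusted p 0.0572, edgeR adjusted p 0.817), from GGOH 0.79 ± 0.48 and from rosuvastatin 0.77 ± 0.48. Rosuvastatin against vehicle gave 0.21 ± 0.49. Without combination mouse 5 the first 3 values were 0.59, 0.39 and 0.35, and the last ran from 0.014 without rosuvastatin mouse 2 to 0.63 without vehicle mouse 5.

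Read on the transcript strand, Gsta4 shares no 31-base word with another gene, and opposite-strand words were not compared. It lay between 30.6 and 58.2 CPM with vehicle, 13.3 and 59.7 CPM with rosuvastatin, 34.6 and 62.9 CPM with GGOH, and 30.7 and 69.0 CPM with the combination. Rosuvastatin mouse 3 was the lowest of all 20 and combination mouse 5 the highest. The log2 differences were -0.16 ± 0.30 for rosuvastatin against vehicle, 0.18 ± 0.30 for the combination against vehicle and 0.34 ± 0.30 for the combination against rosuvastatin (edgeR adjusted p 0.980, 0.879 and 1.00). The first was 0.077 without rosuvastatin mouse 3, the second 0.0055 without combination mouse 5 and the third 0.11 without rosuvastatin mouse 3.

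Gsta3, the most abundant member in TPM, was the one member whose estimate lay below vehicle both with rosuvastatin and with the combination. Vehicle mice had 926, 2441, 1478, 1764 and 2718 CPM, and GGOH mice 1617, 1721, 2000.1, 2732 and 1657 CPM. Rosuvastatin mice had 1777, 1319, 797, 1845 and 1494 CPM, and combination mice 1476, 1509, 1346, 1682 and 1411 CPM. In CPM the combination mice lay closest together, within 1.25-fold, while vehicle mice spanned 2.93-fold and overlapped every other group. In TPM the vehicle mice were less spread, from 1347 to 1880 TPM, beside 1319 to 1702 TPM with the combination. GGOH mice ran from 1380 to 2687 TPM. The log2 difference was -0.37 ± 0.26 for rosuvastatin against vehicle, -0.33 ± 0.26 for the combination against vehicle and -0.39 ± 0.26 for the combination against GGOH (edgeR adjusted p 0.973, 0.817 and 0.450). Without vehicle mouse 5 the first 2 of these were -0.18 and -0.15, and the third was -0.24 without GGOH mouse 4. On log2(TPM + 1) the value for rosuvastatin against vehicle was -0.14. Gsta3 lies on chromosome 1 (21240589 to 21265661, GRCm38), apart from the cluster on chromosome 9 between 78182774 and 78355788. That cluster holds Gsta4, Gsta1, Gm3776, Gm10639 and Gsta2. Gsta3 overlaps the gene model Gm28836 on the opposite strand. The labels do not state that the counting used strand, so reads of that pair may be mixed.

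**Figure D3:**
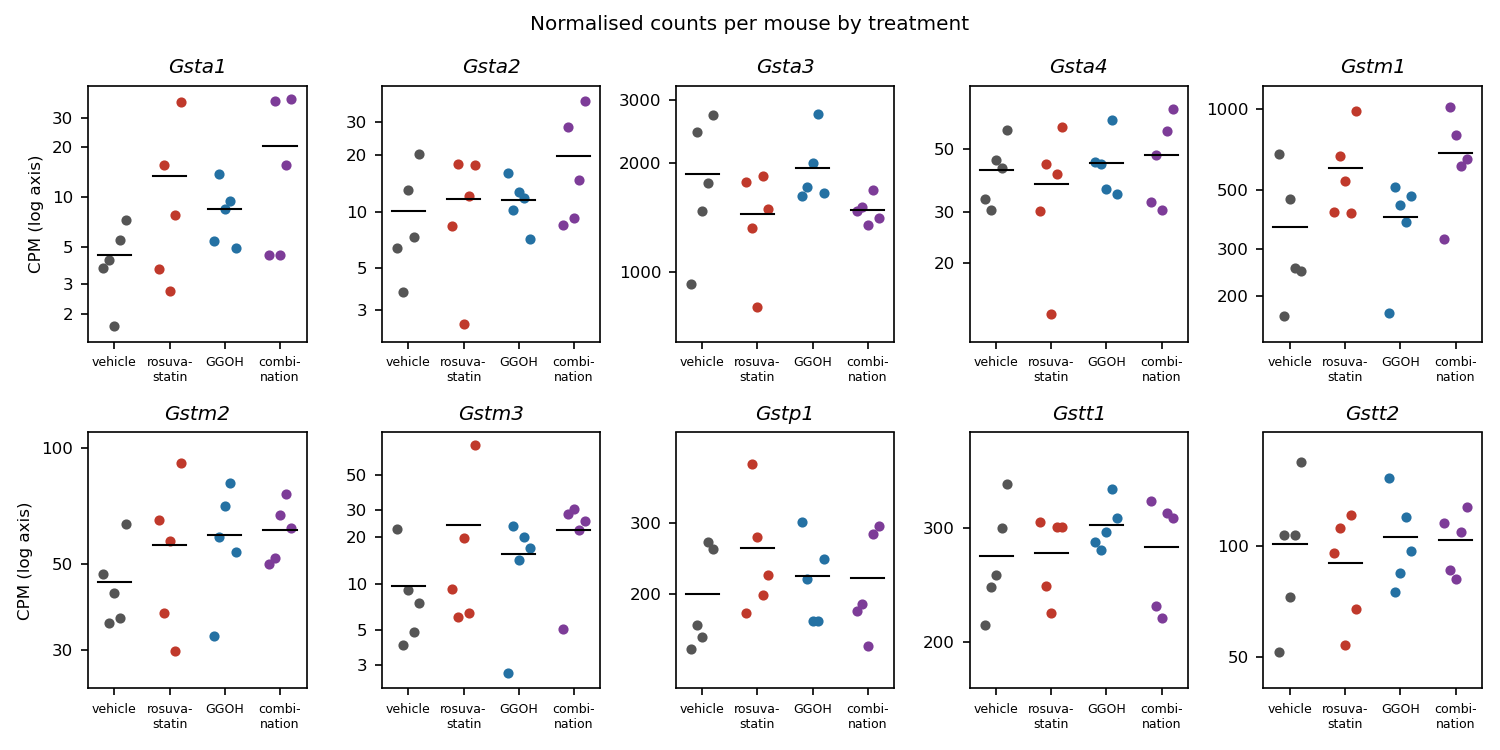
Normalised counts (CPM, log axis) of each gene by group, with 1 point per mouse and a black line at the group mean of 5 mice. Gsta1 and Gsta2 have their highest points in combination mice, at 38.9 and 38.6 CPM, and every group overlaps every other for each gene.

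The mu genes lie side by side on chromosome 3 between 107963696 and 108017973 (GRCm38). Gstm1 was 681, 169, 463, 254 and 247 CPM in vehicle mice and 414, 669.5, 538, 407 and 978 CPM in rosuvastatin mice. It was 174, 509, 437, 379 and 471 CPM in GGOH mice and 328, 1014, 802, 613 and 651 CPM in combination mice. Vehicle mouse 1 reached the level of the statin-treated mice, and combination mouse 1 fell among the GGOH and vehicle mice. The log2 difference was 0.91 ± 0.37 for the combination against vehicle (1.88-fold, 95% interval 0.14 to 1.68 on the log2 scale; unadjusted p 0.0230, edgeR adjusted p 0.817). It was 0.79 ± 0.37 for the combination against GGOH (edgeR adjusted p 0.353) and 0.73 ± 0.37 for rosuvastatin against vehicle (edgeR adjusted p 0.973), the last being 1.12 without vehicle mouse 1. Combination mice 2 and 3, which had the high mitochondrial shares, had the highest Gstm1 counts of their group. Over the 20 mice, within groups, Gstm1 had r = 0.43 with the mitochondrial share (permutation p 0.0460, adjusted over the 10 members 0.287; rho 0.55, permutation p 0.0127, adjusted 0.127; r = 0.53 without the 2 farthest mice). In the fit without those libraries and vehicle mouse 1, Gstm1 had an unadjusted p under 0.05 against vehicle, as with all mice, but not against GGOH.

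Gstm3 encodes a mu enzyme of low abundance in liver. Its counts were 22.5, 4.02, 9.12, 4.89 and 7.45 CPM in vehicle mice and 9.26, 6.13, 19.6, 6.45 and 78.8 CPM in rosuvastatin mice. GGOH mice had 2.64, 23.6, 14.2, 19.9 and 16.9 CPM, and combination mice 5.12, 28.1, 30.1, 22.0 and 25.4 CPM. Rosuvastatin mouse 5 was the highest by far, and 4 of 5 combination mice clustered at 22.0 CPM or more. The log2 difference from vehicle was 1.30 ± 0.67 with rosuvastatin, and 0.13 when rosuvastatin mouse 5 was left out. The combination gave 1.18 ± 0.67 and GGOH 0.67 ± 0.67, and the combination differed from GGOH by 0.51 ± 0.66. Without vehicle mouse 1 the combination and GGOH values against vehicle were 1.80 and 1.31, and without GGOH mouse 1 the last value was 0.24. The edgeR adjusted p of these 4 values was between 0.690 and 1.00. The interaction was -0.79 ± 0.93, and 0.37 without rosuvastatin mouse 5.

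Gstm2 varied less. It ranged from 35.3 to 63.6 CPM with vehicle, 29.8 to 91.3 CPM with rosuvastatin, 32.6 to 81.2 CPM with GGOH and 50.0 to 75.7 CPM with the combination. All 5 combination mice lay above 4 of the 5 vehicle mice, vehicle mouse 5 being the exception. The log2 difference from vehicle was 0.45 ± 0.27 with the combination, 0.41 ± 0.27 with GGOH and 0.32 ± 0.27 with rosuvastatin (edgeR adjusted p 0.817, 1.00 and 0.973). The GGOH value was 0.27 without GGOH mouse 4, and the rosuvastatin value 0.11 without rosuvastatin mouse 5.

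Gstp1, on chromosome 19 from 4035407 to 4037985 (GRCm38), encodes the pi enzyme, which in liver is also known from bile duct cells. It was 145, 167, 156, 269 and 259 CPM with vehicle, and 179, 420.0, 277, 198 and 222 CPM with rosuvastatin. GGOH mice had 301, 217, 170.4, 171 and 244 CPM, and combination mice 181, 188, 148, 282 and 295 CPM. Rosuvastatin mouse 2 was the highest, and the other mice of all groups overlapped. The log2 difference was 0.38 ± 0.26 for rosuvastatin against vehicle, 0.13 ± 0.26 for the combination against vehicle and -0.25 ± 0.26 for the combination against rosuvastatin (edgeR adjusted p 0.973, 0.894 and 1.00). Without rosuvastatin mouse 2 the first and the last of these were 0.14 and -0.0033, and without combination mouse 5 the second was 0.0052. The interaction was -0.39 ± 0.37, and -0.15 without rosuvastatin mouse 2. The bile duct marker Krt19 lay between 0.136 and 1.81 CPM, and its part in the Gstp1 values was not tested. Gstp2, a copy of Gstp1 that differs at 12 of 633 coding bases, was assigned 0.382 to 3.25 CPM. Its log2 difference between the combination and vehicle was 1.39 ± 0.45 (edgeR adjusted p 0.817), and the sum of Gstp1 and Gstp2 gave 0.14 ± 0.26.

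The theta genes on chromosome 10 (Gstt1 from 75783813 to 75798584 and Gstt2 from 75831114 to 75837424, GRCm38) encode enzymes that act on small halogenated compounds and on sulfate esters. Gstt1 was the steadiest member. It lay between 212 and 351 CPM with vehicle, 222 and 307 CPM with rosuvastatin, 277 and 345 CPM with GGOH, and 218 and 329.5 CPM with the combination. For the log2 difference from vehicle, the fit gave 0.02 ± 0.17 for rosuvastatin (95% interval -0.33 to 0.36), 0.15 ± 0.17 for GGOH (-0.19 to 0.50) and 0.04 ± 0.17 for the combination (-0.30 to 0.39). Gstt2 ranged from 51.5 CPM in vehicle mouse 1 to 168 CPM in vehicle mouse 5, so in CPM both extremes of the 20 mice fell in the control group. In TPM they did not: the lowest was rosuvastatin mouse 3 (94.5 TPM) and the highest combination mouse 5 (201 TPM). The log2 difference of Gstt2 from vehicle was -0.17 ± 0.28 with rosuvastatin (95% interval -0.74 to 0.40) and 0.04 ± 0.28 with the combination (-0.54 to 0.61).

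Some members varied together from mouse to mouse after the group means had been subtracted. Over the 20 mice, 10 of 45 pairs had a Benjamini-Hochberg adjusted permutation p under 0.05 for Pearson's r (100000 permutations within groups), 8 of them positive and 2 negative. The share of passing pairs among all tested genes was not computed, so this count has no background beside it. Gsta2 and Gsta4 had r = 0.87 (permutation p 2e-05, adjusted 9e-04; Spearman's rho 0.85, permutation p 3e-05), and 0.80 without the 2 mice farthest from the median of Gsta2. These genes share no 31-base word with each other. Gstm1 and Gstm3 had r = 0.85 (permutation p 0.00014, adjusted 0.00315; rho 0.81, permutation p 0.00018), and 0.78 without the 2 farthest mice; 15.2% of the Gstm3 words occur in Gstm1. Gsta1 and Gsta4 had r = 0.74 (permutation p 0.00235, adjusted 0.0170; rho 0.76, permutation p 0.00144; 0.64 without the 2 farthest). Gstm2 and Gstm3 had r = 0.74 (permutation p 0.00181, adjusted 0.0170; rho 0.63, permutation p 0.00935; 0.64 without the 2 farthest). Of the Gsta1 words, 56.6% occur in Gsta2, and 44.7% of the Gsta2 words occur in Gsta1. Gsta1 and Gsta2 had r = 0.69 (permutation p 0.00679, adjusted 0.0306; rho 0.70, permutation p 0.00466; 0.60 without the 2 farthest). On log2(TPM + 1) these 5 values of r were 0.87, 0.88, 0.73, 0.89 and 0.69. Some pairs that did not pass in CPM were higher on this scale, where no test was run. Gstm1 with Gstm2 had 0.71 (0.44 in CPM), Gstm2 with Gstt1 0.72 (0.25 in CPM) and Gstm3 with Gstt1 0.62 (-0.20 in CPM). Those pairs were picked after their values were seen.

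The other 5 pairs that passed in CPM were weaker in TPM. Gstt1 and Gstt2 had r = 0.66 in CPM (permutation p 0.00387, adjusted 0.0218; rho 0.50, permutation p 0.0265; 0.57 without the 2 farthest) and 0.17 in TPM. Gsta3 and Gstt2 had r = 0.71 in CPM (permutation p 0.00644, adjusted 0.0306) and 0.18 in TPM, and their rank correlation did not pass (rho 0.52, permutation p 0.0514, adjusted 0.213; r = 0.49 without the 2 farthest). Gsta3 and Gstt1 had r = 0.67 in CPM (permutation p 0.00154, adjusted 0.0170; rho 0.60, permutation p 0.00392; 0.51 without the 2 farthest) and 0.36 in TPM. Gstm1 and Gstt2 had r = -0.70 in CPM (permutation p 0.00265, adjusted 0.0170; rho -0.69, permutation p 0.00316; -0.58 without the 2 farthest) and -0.41 in TPM. Gstm3 and Gstt2 had r = -0.66 in CPM (permutation p 0.00253, adjusted 0.0170; rho -0.71, permutation p 0.00156; -0.63 without the 2 farthest) and -0.41 in TPM. The 5 genes of these pairs also followed the first principal component of the other genes, which held 35.6% of their variance within groups. The r with that component was -0.81 for Gstm1 (permutation p 0.00011, adjusted over the 10 members 0.00055; rho -0.80, permutation p 0.00034; -0.77 without the 2 farthest) and 0.83 for Gstt2 (permutation p 5e-05, adjusted 5e-04; rho 0.78, permutation p 0.00014; 0.77 without the 2 farthest). It was 0.70 for Gsta3 (permutation p 0.00234, adjusted 0.00647; rho 0.60, permutation p 0.0201; 0.58 without the 2 farthest), 0.67 for Gstt1 (permutation p 0.00731, adjusted 0.0146; rho 0.62, permutation p 0.0118; 0.52 without the 2 farthest) and -0.59 for Gstm3 (permutation p 0.00259, adjusted 0.00647; rho -0.64, permutation p 0.00173; -0.51 without the 2 farthest). The other 5 members did not pass. After that component was removed, r was -0.10 for Gstm1 with Gstt2, -0.39 for Gstm3 with Gstt2 and 0.38 for Gsta3 with Gstt1. It was 0.33 for Gsta3 with Gstt2 and 0.26 for Gstt1 with Gstt2. Among the pairs described before, it was 0.87 for Gsta2 with Gsta4 and 0.78 for Gstm1 with Gstm3. Gsta1 with Gsta4 had 0.73, Gstm2 with Gstm3 0.84 and Gsta1 with Gsta2 0.68. No test was run on the values without the component.

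**Figure D4:**
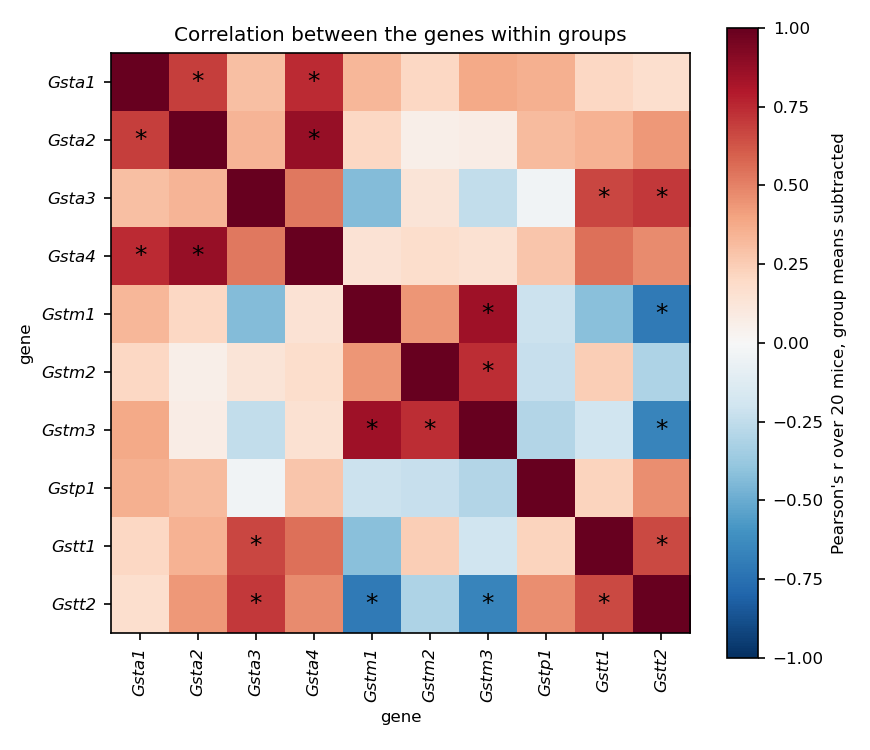
Pearson's r between each pair of genes over 20 mice, from log2 CPM with group means subtracted; red is positive, blue negative, and a star marks an adjusted permutation p under 0.05. The alpha genes Gsta1, Gsta2 and Gsta4 are red with each other, as are the mu genes Gstm1, Gstm2 and Gstm3, of which the pair Gstm1 and Gstm2 (r = 0.44) carries no star.

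**Figure D5:**
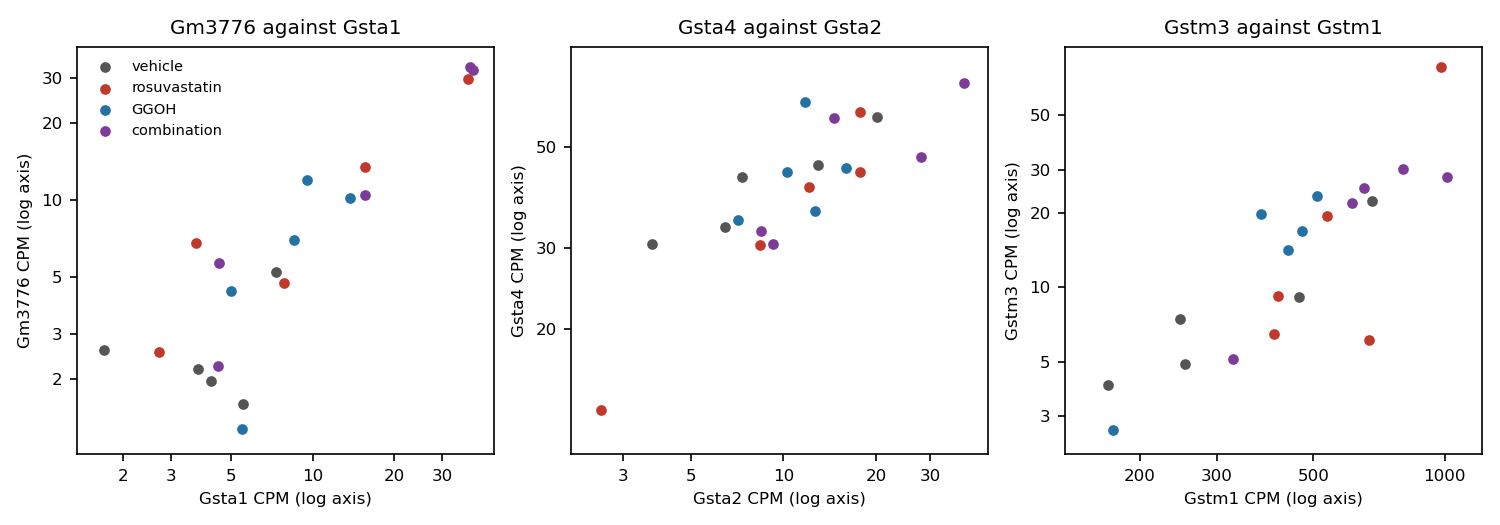
Normalised counts per mouse (CPM, both axes log) of Gm3776 against Gsta1, Gsta4 against Gsta2, and Gstm3 against Gstm1, with 1 point per mouse coloured by group. In the first panel rosuvastatin mouse 5 and combination mice 2 and 5 sit together at the upper right, above 29 CPM for both genes.

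Among all tested genes, the closest in pattern over the 20 mice (highest r, group means subtracted, given as a description) was Gm3776 for Gsta1 (0.83), followed by Wfdc2 (0.75) and Gsta4 (0.74). For Gsta2 it was Gsta4 (0.87), then Etnppl (0.84) and Fam72a (0.83), and for Gsta4 it was Gsta2, then Hsd17b6 (0.85) and Fam72a (0.83). The closest to Gstm3 were Slc24a3 (0.92), Pgd (0.89), an enzyme of the pentose phosphate pathway, and Plekha1 (0.89), and Gstm1 ranked 12th of 12788 genes. Gstm1 was closest to Lrrfip2 (0.92), Srsf4 (0.91) and Egln1 (0.90), and Gstm2 to Lipa, the lysosomal acid lipase (0.89), Kmt5a (0.88) and Laptm4b (0.83). Gsta3 was closest to Acss3 (0.94), Spc24 (0.92) and Acot13 (0.92). Gstt1 was closest to Pde1a (0.92), Ttr (0.90) and Slc25a5 (0.88), Gstt2 to Gchfr (0.93), Cmbl (0.93) and C8g (0.92), and Gstp1 to Bok (0.78), 1700037C18Rik (0.73) and Ccdc50-ps (0.71). Members of passing pairs were not always near each other in this order. For Gsta3, Gstt2 ranked 1156th and Gstt1 1449th of 12788 genes. For Gstt2, Gsta3 ranked 1472nd and Gstt1 1793rd, while Gstm3 ranked 45th for Gstm1 and 23rd for Gstm2.

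Upstream sequence is shown for 2 of the pairs that varied together, Gsta1 with Gsta2 and Gstm1 with Gstm3, and for Gsta3, the most abundant member in TPM, as the 250 bases before the transcription start in RefSeq (GRCm38.p6), read on the strand of the gene. A promoter entry was used for 8 of the 10 members, Gsta4 and Gstt2 being without one; Gstm1 had 2 starts with overlapping windows that hold the same match, and 1 is shown. Capitals mark a match to TGACNNNGC, the core of the antioxidant response element through which NRF2 acts, or to GCGTG, the core of the xenobiotic response element through which AHR acts, both searched on both strands.
Gsta1: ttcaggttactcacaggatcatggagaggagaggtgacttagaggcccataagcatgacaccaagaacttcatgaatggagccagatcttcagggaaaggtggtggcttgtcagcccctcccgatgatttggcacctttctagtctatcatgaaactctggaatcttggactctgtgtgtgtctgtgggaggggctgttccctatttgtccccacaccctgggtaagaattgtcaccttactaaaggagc
Gsta2: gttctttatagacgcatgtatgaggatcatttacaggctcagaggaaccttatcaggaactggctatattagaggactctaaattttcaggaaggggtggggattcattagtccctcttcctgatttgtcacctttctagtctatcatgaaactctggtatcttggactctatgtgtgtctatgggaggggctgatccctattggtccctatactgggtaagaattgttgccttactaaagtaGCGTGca
Gstm1: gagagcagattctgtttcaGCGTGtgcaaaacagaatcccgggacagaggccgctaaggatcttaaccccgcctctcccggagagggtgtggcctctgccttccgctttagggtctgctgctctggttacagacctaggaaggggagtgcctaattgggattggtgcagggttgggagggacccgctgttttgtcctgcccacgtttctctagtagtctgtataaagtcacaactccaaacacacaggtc
Gstm3: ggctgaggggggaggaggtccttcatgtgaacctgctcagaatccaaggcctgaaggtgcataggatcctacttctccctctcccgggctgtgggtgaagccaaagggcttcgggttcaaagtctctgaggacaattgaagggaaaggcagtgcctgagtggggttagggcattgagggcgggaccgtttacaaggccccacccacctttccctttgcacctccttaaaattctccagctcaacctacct
Gsta3: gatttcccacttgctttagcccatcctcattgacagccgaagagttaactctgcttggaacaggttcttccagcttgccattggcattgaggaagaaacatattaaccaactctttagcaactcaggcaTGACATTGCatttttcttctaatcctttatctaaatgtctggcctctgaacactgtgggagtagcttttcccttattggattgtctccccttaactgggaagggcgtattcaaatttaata
The windows are chr9:78230419-78230668 (plus strand) for Gsta1, chr9:78347146-78347395 (minus) for Gsta2, chr3:108017819-108018068 (minus) for Gstm1, chr3:107969175-107969424 (minus) for Gstm3 and chr1:21240335-21240584 (plus) for Gsta3. Gsta1 and Gsta2 had 76% of the window in common when aligned with gaps, and Gstm1 and Gstm3 64.8%. All other pairs of members lay between 54.4% and 62%, the highest being Gsta1 with Gstm2 of another class. The value for Gstm1 and Gstm3 was therefore close to that of pairs from different classes. The antioxidant core occurred in 1 member, Gsta3, from 121 to 113 bases before the start, and in 10.2% of 32851 windows of the same length. The xenobiotic core occurred in 3 members (Gstm1, Gsta2 and Gstp1) and in 28.2% of windows, and the 2 motifs did not overlap in the members' windows. A match describes the letters only. Sequence farther upstream than 250 bases was not searched, so a window without a match does not mean that the gene lacks the element.

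The rest of the glutathione pathway was examined in 6 lists, and 0 genes of any list passed the edgeR adjusted threshold in any comparison. Of 21 other transferases and related genes, 15 were tested. Combination against vehicle had 8 of 15 higher, where 50.8% of all genes were, and 3 at an unadjusted p under 0.05, where 5.5% of all genes were: Gm3776, Gstp2 and Gstm4 (log2 difference 0.38 ± 0.17). The fourth named gene, Gstm5, had -0.34 ± 0.16 in the combination against rosuvastatin. Of 15 tested genes of glutathione synthesis and recycling, 8 lay higher and 7 lower in the combination than in vehicle (median 0.05). Chac2, which degrades glutathione, had -0.70 ± 0.28 and Gclm, the modifier subunit of the rate-limiting enzyme of glutathione synthesis, -0.26 ± 0.12 in that comparison. Pgd had 0.51 ± 0.26 with rosuvastatin against vehicle, and Oplah, which recycles 5-oxoproline, 0.34 ± 0.19 with the combination against GGOH; they were 0.78 without vehicle mouse 1 and 0.18 without combination mouse 3.

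Of 12 tested genes of conjugate export and mercapturate formation, 10 lay higher in the combination than in GGOH (median 0.26, all genes 0.01), where 50.9% of all genes did. The combination had 6 of 12 higher against vehicle and 6 of 12 against rosuvastatin. Against vehicle, 7 of 12 lay higher with rosuvastatin and 2 of 12 with GGOH. The export pumps Abcc3 and Abcc2 had log2 differences of 0.63 ± 0.24 and 0.72 ± 0.32 in the combination against GGOH (edgeR adjusted p 0.348 for both). Abcc1 had 0.88 ± 0.35 with rosuvastatin against vehicle, and the aminoacylase Acy1 had -0.44 ± 0.17 with GGOH against vehicle (-0.28 without vehicle mouse 3). Of 18 regulators, 9 lay higher with rosuvastatin and 6 with GGOH than with vehicle. In the combination 12 lay higher and 6 lower than in vehicle, where 50.8% of all genes lay higher. The receptor Ahr had -0.58 ± 0.15 there (unadjusted p 0.000772, edgeR adjusted p 0.817) and the glucocorticoid receptor Nr3c1 -0.35 ± 0.12. The NRF2 partner Mafg had 0.82 ± 0.29 and the receptor partner Rxra 0.60 ± 0.32 in the combination against GGOH.

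Of 14 tested NRF2 targets outside the family, 7 lay higher in the combination than with rosuvastatin (52.6% of all genes did). Against GGOH, 5 of 14 did (50.9% of all genes). The interaction was positive for 2 of 14 (52.3% of all genes). Compared with vehicle, 12 lay higher with rosuvastatin (median 0.19) and 12 with GGOH (median 0.24). The combination against vehicle had 10 of 14 higher (median 0.17). In the same order, 47.3%, 46.9% and 50.8% of all genes lay above vehicle. The comparisons against vehicle share the vehicle mice. Me1, malic enzyme, had 0.67 ± 0.20 and Hmox1, heme oxygenase, 0.82 ± 0.31 with GGOH, Srxn1, sulfiredoxin, 0.47 ± 0.15 with rosuvastatin, and Ephx1, epoxide hydrolase, 0.46 ± 0.18 with the combination. Their edgeR adjusted p was between 0.817 and 1.00. Hmox1 was 0.40 without GGOH mouse 2, which had 53.5 CPM where the other GGOH mice had 10.9 to 31.3 CPM. Kupffer cell markers lay higher with GGOH than with vehicle in 6 of 6 genes (median 0.42; summed level 96.8 to 403 CPM with GGOH and 142 to 323 CPM with vehicle), and their part in the Hmox1 value was not tested. Of 9 tested targets of CAR, PXR and AHR, 8 lay higher in the combination than with rosuvastatin (median 0.11), where 52.6% of all genes did. Against vehicle, 4 of 9 lay higher with the combination (median -0.06), 2 with rosuvastatin and 5 with GGOH. In the combination against GGOH, 5 of 9 lay higher. Cyp2b10, the classical CAR target, had 2.98 ± 0.50 (edgeR adjusted p 0.0714) and Cyp2c29 0.87 ± 0.22 in the combination against rosuvastatin. DESeq2 gave Cyp2b10 an adjusted p of 7.99e-06, and limma on log2(TPM + 1) gave 0.0175, while edgeR with the replicate block gave 0.513 and edgeR without vehicle mouse 1 and combination mice 2 and 3 gave 0.898. Cyp3a11 had 0.76 ± 0.27 with GGOH against vehicle, and Tiparp, an AHR target, -0.55 ± 0.23 with the combination against vehicle.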

How the data were processed

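Per the labels' protocols, poly(A) RNA of whole liver was sequenced as paired reads after a TruSeq preparation. Per the submitters' processing notes, kallisto 0.44.0 and build GRCm38 were used; DESeq2 is listed without a role, and the annotation is not given in the sources used here. The authors deposited estimated counts per gene, already whole numbers, and TPM values, which allow for transcript length. The 1 entry without a gene name (0.00801 to 0.0157% of counts) was left out.

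Tests used edgeR 4.0.16 under R 4.3.3, by quasi-likelihood on the counts (TMM, default filter by group, 1 group-means model over 20 libraries, Benjamini-Hochberg over all 12789 genes, threshold 0.05). The script was tested on simulated data. Values after ± are SD for levels and SE for log2 differences. Alternatives used DESeq2 1.42.0 and limma 3.58.1. Named pathway genes are up to 4 per list with the smallest unadjusted p in any comparison. The members and lists were chosen with earlier results of these data known.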

Additional observations from a re-analysis of the deposited data

Results flagged for a closer look

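In 40 groups of 5 mice (10 members in 4 groups), 3 held a mouse whose gap to its nearest neighbour on the log2 CPM scale exceeded 0.71 of the range of the group, where chance gives about 2. Gstm1 in GGOH mouse 1 was 174 CPM, against 379 to 509 CPM in the other 4 GGOH mice. Gstm3 in the same mouse was 2.64 CPM, against 14.2 to 23.6 CPM. Gstm3 in combination mouse 1 was 5.12 CPM, against 22.0 to 30.1 CPM in the other 4 combination mice.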

How the results depend on the processing

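No member passed the adjusted threshold under any alternative run: RLE factors, DESeq2, no filter, a stricter filter (CPM of 1 or more in 5 libraries), a fit of the compared groups alone, a replicate block, limma-trend on TPM, sample quality weights, summed paralogs, and each library left out. Genes called over the whole table rose from 0 to 2 (Nfe2 and Prg4) in DESeq2 for rosuvastatin against vehicle, to 1 (Cyp2b10) for the combination against rosuvastatin in DESeq2, without the filter and on log2(TPM + 1), and for the combination against vehicle to 5 in DESeq2 (Cyp2b10, Gm10171, Gm10233, Saa1 and Saa2) and 1 (Cyp2b10) without the filter and on both TPM scales; these were named after their values were seen. Leaving out 1 library gave 0 to 1 genes in those last 2 comparisons and 0 in the others. With the replicate block 0 genes were called in each comparison. The labels do not state whether equal numbers pair the mice. The 30 same-number pairs had correlations from -0.46 to 0.51, and 4 of 20 libraries correlated best with their own number. These values cannot settle whether such mice shared a cage or a day of processing. Of 1200 values of the members with 1 library left out, 1136 kept their direction. Of the 60 member estimates, 24 reversed there at least once, with a reversed value as large as 1.07 in absolute size. Of 680 values of the members under alternatives other than leaving out 1 library, 641 kept their direction. Of the 60 estimates, 17 reversed at least once under these alternatives. Signs that changed among the values given above were Gstt2 with rosuvastatin on log2(TPM + 1) and log2(TPM + 0.1) (0.068 and 0.069), Gstt1 with rosuvastatin under quality weights (-0.074) and in the fit that left out vehicle mouse 1 with combination mice 2 and 3 (-0.044), and Gstt2 with the combination under quality weights (-0.055). Leaving out 1 library, the differences from vehicle ran from -0.36 to 0.077 for Gsta4, -0.032 to 0.14 for Gstt1 and -0.31 to 0.11 for Gstt2 with rosuvastatin, and from -0.019 to 0.16 for Gstt1 and -0.11 to 0.31 for Gstt2 with the combination; the interaction ran from -0.74 to 0.50 for Gsta1 and -1.45 to 0.37 for Gstm3. The cause of these changes was not tested. The members at an unadjusted p under 0.05 numbered 0 to 4 for rosuvastatin against vehicle (0 without rosuvastatin mouse 5) and 1 to 4 for the combination against vehicle when 1 library was left out, beside 2.17 to 13.6% and 2.74 to 17.1% of all genes. The lowest member counts were 26 for Gsta1 and 27 for Gstm3, and 5 mice per group limit what can be detected.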

Other observations

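Gstt1, the steadiest member in CPM, changed its order of mice with the scale. Vehicle mouse 1 had the lowest normalised count of all 20 mice (212 CPM) but the highest TPM of the vehicle group (351 TPM), and vehicle mouse 5 had the highest normalised count (351 CPM) with 265 TPM. The ratio of TPM to CPM for Gstt1 was 1.65 in vehicle mouse 1 and 0.757 in vehicle mouse 5, and for Gsta3 it was 1.57 and 0.692. The TMM factors of these libraries were 1.25 and 0.761, the highest and the lowest of the 20. Which scale is closer to the RNA in the tissue was not tested.

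Gsta1 and Gstm1 had r = 0.33 over 20 mice in CPM (permutation p 0.158, adjusted over 45 pairs 0.363; rho 0.31, permutation p 0.208; 0.24 without the 2 mice farthest from the median of Gsta1). After the first principal component of the other genes was removed, r was 0.84, and on log2(TPM + 1) it was 0.43. This pair was picked after its values were seen, and the value without the component is given with no test.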
